A study of Homo sapiens with 6 samples.

Results

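On chromosome 2 of the myeloma line ARP1, a stretch of about 4.46 Mb held accessible-region calls so close together that they covered between 16.7% and 33.0% of its bases in single lists. It lies in the window from 9 to 14 Mb (GRCh38), which was chosen by its peak density in these same lists. All peaks whose midpoint fell in that window were taken, 921 to 1017 per list in cells with a KDM6A knockout and 1137 to 1174 per list in wild-type cells, and peaks sharing at least 1 bp were merged. This gave 1513 regions of 75701 in the whole series. The assay was ATAC-seq, where a transposase inserts sequencing adapters into open DNA, and there were 3 libraries of the KDM6A knockout (KO) and 3 of the KDM6A wild type (WT). No treatment is given, and all 6 libraries are of the same line. ARP1 is a human line of multiple myeloma, a cancer of antibody-secreting plasma cells. Replicates are numbered as biological replicates, with no word on cultures or on whether the knockout is 1 clone, so a p-value here reflects only how these libraries vary, which may be technical. The labelled cell type had gene-end peaks at 6 of 8 plasma cell markers in all 6 lists (SDC1, TNFRSF17, CD38, IRF4, XBP1 and MZB1). PRDM1 had one in 1 KO and 3 WT lists and SLAMF7 in 0 KO and 2 WT lists. Among markers of B, T and myeloid cells, MS4A1, CD3D, CD14 and LYZ had none in any list, PAX5 had one in 5 lists and CD3E in 6. KDM6A itself had a gene-end peak in every list, with folds over background of 11.4, 15.1 and 12.6 in KO and 8.76, 13.6 and 10.7 in WT, which does not check the knockout, since an edited gene can keep an open start.

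KDM6A is a histone demethylase that erases the methylation which polycomb complexes place on lysine 27 of histone H3 in silent chromatin, and it works with the KMT2C and KMT2D enhancer complexes. Accessible chromatin in most cells consists of short openings at gene starts and enhancers, separated by long closed stretches. A run of megabases with calls every few kilobases departs from that layout. The window holds 27 protein-coding gene records, 50 long non-coding RNA genes and 6 miRNA genes of RefSeq. Among them are RRM2, the small subunit of ribonucleotide reductase, ODC1, the rate-limiting enzyme of polyamine synthesis, and ADAM17, the membrane protease that sheds tumour necrosis factor.

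The gene starts with the strongest calls are shown first, since they are the sharpest features of the segment, together with the start of ASAP2, which had a call in no list. RefSeq start sequences (GRCh38.p14) were found for 22 of the 27 genes. Each line gives the 200 bases before the annotated start, 5′ to 3′ on the gene's strand, except CPSF3, for which the 84 bases between its start and that of the divergent ITGB1BP1 are given. Capitals mark matches on either strand to the GC box GGGCGG, the CCAAT box, the E-box CACGTG, the ETS core CGGAAG and the TATA box TATAAA, and matches may overlap each other.
ADAM17: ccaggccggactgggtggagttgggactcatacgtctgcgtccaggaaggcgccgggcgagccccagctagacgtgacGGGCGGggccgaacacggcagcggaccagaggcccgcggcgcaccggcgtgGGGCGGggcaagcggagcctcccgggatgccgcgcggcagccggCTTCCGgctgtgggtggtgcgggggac
YWHAQ: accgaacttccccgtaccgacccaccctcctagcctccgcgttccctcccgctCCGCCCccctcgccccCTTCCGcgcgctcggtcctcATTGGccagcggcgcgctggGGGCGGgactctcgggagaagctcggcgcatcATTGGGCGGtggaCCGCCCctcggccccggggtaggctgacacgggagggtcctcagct
CPSF3: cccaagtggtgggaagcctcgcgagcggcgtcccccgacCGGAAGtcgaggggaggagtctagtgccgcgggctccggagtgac
SLC66A3: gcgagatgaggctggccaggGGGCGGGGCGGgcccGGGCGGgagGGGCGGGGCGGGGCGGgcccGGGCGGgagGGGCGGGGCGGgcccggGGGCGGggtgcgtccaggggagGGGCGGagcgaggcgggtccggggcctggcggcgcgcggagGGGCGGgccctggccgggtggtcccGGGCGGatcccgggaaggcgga
PDIA6: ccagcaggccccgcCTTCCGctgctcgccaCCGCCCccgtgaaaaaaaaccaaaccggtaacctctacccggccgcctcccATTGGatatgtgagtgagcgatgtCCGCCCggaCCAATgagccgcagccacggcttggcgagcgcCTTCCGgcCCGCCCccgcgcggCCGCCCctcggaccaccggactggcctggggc
ASAP2: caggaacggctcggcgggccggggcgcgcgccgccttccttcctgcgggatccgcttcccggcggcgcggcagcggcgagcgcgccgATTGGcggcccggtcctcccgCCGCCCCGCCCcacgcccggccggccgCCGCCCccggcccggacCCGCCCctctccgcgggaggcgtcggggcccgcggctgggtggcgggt
These windows lie at chr2:9555831-9556030 (ADAM17, minus strand), chr2:9630998-9631197 (YWHAQ, minus strand), chr2:9423570-9423653 (CPSF3, plus strand), chr2:11155267-11155466 (SLC66A3, plus strand), chr2:10812786-10812985 (PDIA6, minus strand) and chr2:9206612-9206811 (ASAP2, plus strand). GGGCGG occurred 2 times before ADAM17, 4 times before YWHAQ, 13 times before SLC66A3, 4 times before PDIA6 and 4 times before ASAP2. It occurs in 39.9% of 27305 start windows of the same 200 bases. CGGAAG occurred before ADAM17, YWHAQ, CPSF3 and PDIA6 (15.1% of all windows hold it). CCAAT occurred before YWHAQ, PDIA6 and ASAP2 (28.9%). CACGTG (5.62%) and TATAAA (8.92%) were in none of the 6 windows. The start of ASAP2, which had no call, held GGGCGG and CCAAT as some called starts did, and 85.5% of its bases were G or C, against 71.0% to 87.5% in the other windows.

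The borders of the dense run fell at nearly the same bases in all libraries. In each list the run's ends were found by starting 100 kb inside the borders fitted to the 100 kb bins and walking outward until a gap over 30 kb, so longer gaps could lie inside the run. It began at 9269603, 9269672 and 9269555 in the KO lists and at 9269598, 9269664 and 9269672 in the WT lists, a range of 117 bases. It ended at 13723866, 13728833 and 13731631 in the KO lists and at 13726021, 13731577 and 13728657 in the WT lists, a range of 7765 bases. At both borders the KO and WT positions overlapped. The gap that ended the run above was 671, 517 and 663 kb in the KO lists and 42.2, 36.6 and 39.6 kb in the WT lists, so in WT it was no longer than the longest gaps inside the run. No list had a peak in the 100 kb below the run, while the first 100 kb of the run held 46, 55 and 36 peaks in the KO lists and 30, 34 and 26 in the WT lists. At the upper border the last 100 kb held 16, 14 and 12 peaks in the KO lists and 31, 19 and 28 in the WT lists, and the next 100 kb held none in any KO list and 1, 1 and 2 in the WT lists. The lower border lies inside ASAP2, a GTPase-activating protein for Arf, between 62.7 and 62.9 kb above its start (chr2:9206812-9405678). The start of ASAP2, outside the run, had a peak in no list, and its upper end, inside the run, had one in all 6. Between the lower border and the window's edge the only calls were at the start of MBOAT2, a lysophospholipid acyltransferase, with folds over background of 5.42 and 7.21 in 2 of 3 KO lists and 4.27, 4.86 and 6.50 in the WT lists.

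**Figure D1:**
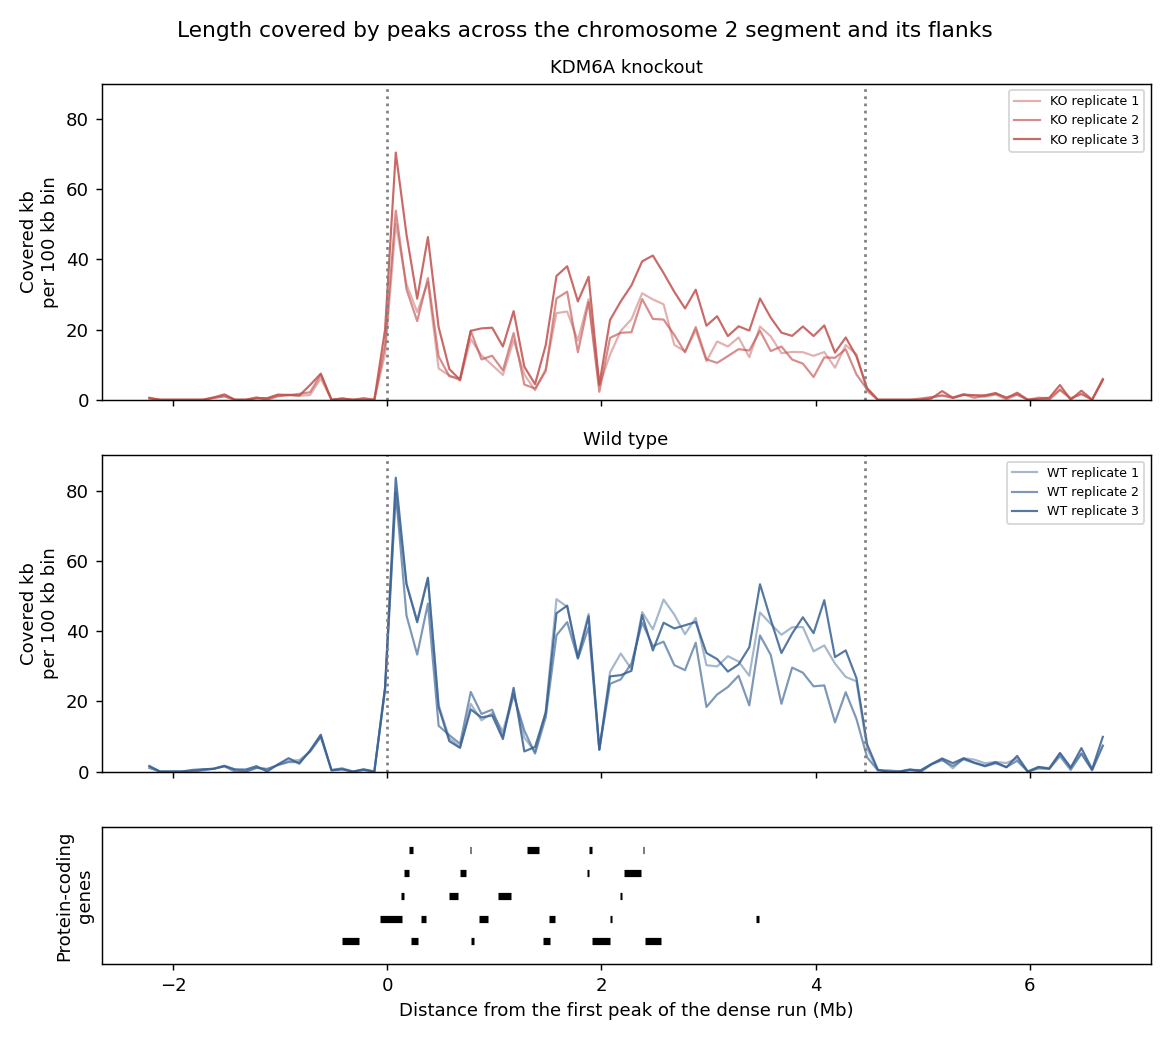
Length covered by peaks in each 100 kb bin (kb), by distance from the first peak of the dense run (Mb), with 1 line per library, KO above WT. Dotted lines mark the median ends of the run and black bars the protein-coding genes. Coverage climbs and drops within 1 or 2 bins at both borders in every library and dips between the first dense stretch and the later ones.

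The density chose the window, so it is described and not tested. The 5 bins of 1 Mb from 9 to 14 Mb had the 5 highest mean peak numbers of the 2929 such bins of the genome with a peak. Just inside the lower edge the bin from 9 to 10 Mb held 181 ± 15.7 peaks in KO and 162 ± 7.64 in WT lists (SD, n = 3), and just outside it the bin from 8 to 9 Mb held 20.3 ± 1.53 in KO and 25.7 ± 1.53 in WT. The bin from 13 to 14 Mb held 136 ± 13.1 in KO and 224 ± 24.6 in WT, and the bin from 14 to 15 Mb 13.0 ± 1.00 in KO and 22.3 ± 0.58 in WT. The upper flank carries NBAS, DDX1 and MYCN, a proto-oncogene of the MYC family, and does not belong to the run. MYCN kept a gene-end peak in all 6 lists, with folds of 15.3, 17.7 and 15.4 in KO and 28.0, 30.4 and 24.5 in WT.

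The KO lists held fewer peaks in the segment than the WT lists, but the segment made up a larger part of the KO lists. Peaks numbered 921, 993 and 1017 in the KO libraries and 1174, 1137 and 1172 in the WT libraries, so every KO library lay below every WT library. KO thus stood at 84.2% of WT in the segment, while the rest of the list stood at 64.1%, with 34498 ± 2145 peaks in KO and 53826 ± 910 in WT. The segment took 2.79%, 2.66% and 2.82% of the KO lists and 2.16%, 2.09% and 2.09% of the WT lists, again without overlap and now with KO higher. Per Mb it held 15.2 ± 0.59 times as many peaks as its flanks of 2 Mb in KO and 11.2 ± 0.31 times in WT (SD, n = 3). Away from gene ends these ratios were 16.8 ± 0.85 in KO and 11.8 ± 0.36 in WT.

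Each of these 4 differences gave p = 0.1 in an exact permutation test (two-sided), which cannot go lower with 3 libraries in each group, and 0.133 after Benjamini-Hochberg adjustment over the 8 measures tested, so none passed 0.05. The direction for the number of peaks changed with list length. When only the strongest 33055 peaks of each list were kept, the segment held 921, 709 and 783 in the KO lists and 252, 204 and 187 in the WT lists, so that KO was higher (exact permutation p = 0.1). When peaks under a fold of 4 were dropped it held 675 ± 29.2 in KO and 620 ± 99.3 in WT (exact permutation p = 0.6). The larger share of the list in KO kept its direction in both. With lists of equal length it was 2.43% ± 0.33 in KO and 0.648% ± 0.10 in WT. There each list holds 33055 peaks, so the share only restates the number of peaks. At a fold of at least 4 the share was 2.14% ± 0.04 in KO and 1.39% ± 0.21 in WT. Read depth differed between the genotypes: the background pileup recovered from the folds was 2.31 ± 0.26 in KO and 3.52 ± 0.36 in WT, and the weakest fold listed was 3.23 ± 0.12 in KO and 2.81 ± 0.10 in WT. What part depth has in these differences was not tested.

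**Figure D2:**
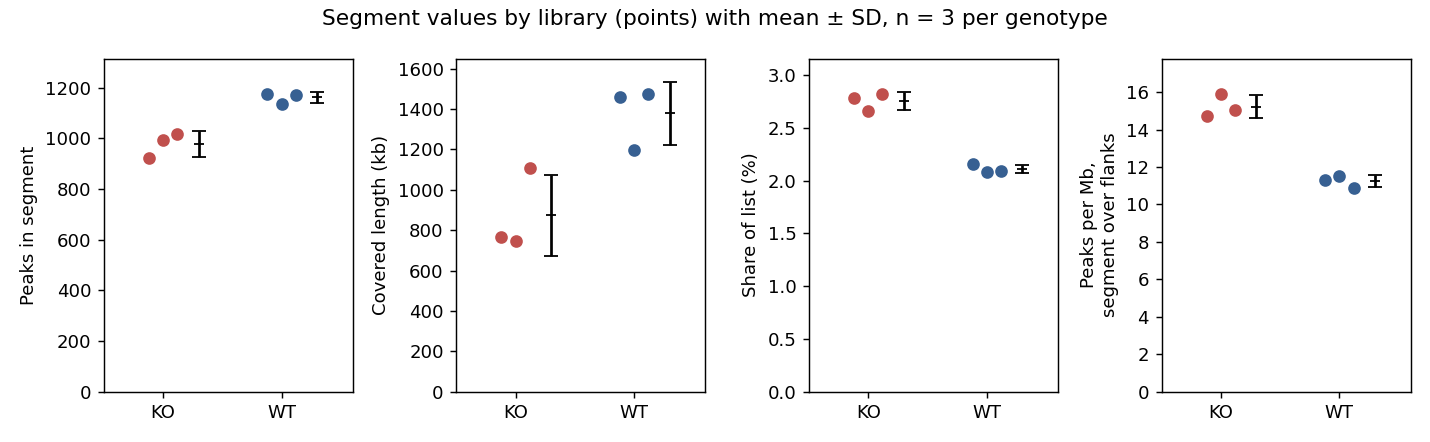
Values of each library (points) with mean ± SD (n = 3), KO left of WT: peaks in the segment, covered length (kb), share of the list (%) and peaks per Mb over those in the flanks (ratio). KO libraries lie below WT libraries in the first 2 panels and above them in the last 2.

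In 2 other dense segments the KO to WT ratio was lower, and further ones were not compared. On the long arm of chromosome 4 KO lists held 442, 500 and 545 peaks and WT lists 1725, 1405 and 1879, or 29.7% of WT in KO. On chromosome 11, from 88 to 94 Mb, KO lists held 139 ± 10.7 and WT lists 375 ± 68.2 (SD, n = 3), or 37.2%. The chromosome 2 segment, at 84.2%, was the only one of the 3 above the 64.1% of the rest of the list. These segments were picked for their density, and the difference between them was not tested.

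The calls were wider in WT, so peak number and covered length gave different pictures of the segment. Peaks covered 767, 745 and 1106 kb in the KO libraries and 1461, 1199 and 1473 kb in the WT libraries, again with no overlap (exact permutation p = 0.1, 0.133 after adjustment). KO covered 63.3% of the WT length in the segment, and 60.0% over the whole lists, with 32.7 ± 3.54 Mb in KO and 54.5 ± 2.39 Mb in WT. KO replicate 3 covered more of the segment than the other KO libraries, and also more of the genome (36.7 Mb, against 30.1 and 31.3 Mb). Peaks over 3 kb long numbered 13 to 44 in the segment in KO lists and 59 to 82 in WT lists. They made up 2.60% ± 1.55 of the segment's peaks in KO and 6.16% ± 0.91 in WT. Outside the segment they were also fewer in KO, at 519 ± 191 against 1087 ± 117 in WT. Their shares there were 1.51% ± 0.54 in KO and 2.02% ± 0.19 in WT. With lists of equal length the covered length was 789 ± 176 kb in KO and 553 ± 76.6 kb in WT, so that the direction turned (exact permutation p = 0.2).

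Coverage was uneven inside the run, and KO and WT shared its shape. The bin from 9.3 to 9.4 Mb, within ASAP2, had the highest coverage, with 50.1, 53.9 and 70.4 kb of its 100 kb in the KO lists and 79.3, 79.4 and 83.7 kb in the WT lists. In that bin KO lists held 44, 52 and 35 peaks and WT lists 27, 29 and 25, so KO had more peaks over less sequence. The bin from 10.6 to 10.7 Mb, over NOL10, had 3.44 ± 0.90 kb in KO and 5.91 ± 0.98 kb in WT, and the bin from 11.2 to 11.3 Mb, within ROCK2, had 3.57 ± 1.13 kb in KO and 6.26 ± 0.05 kb in WT. The longest peak-free gap of a list inside the run was 42.2 to 103 kb long. Across the 44 bins from 9.3 to 13.7 Mb the mean covered length in KO correlated with that in WT at a Pearson r of 0.90, given as a description, since bins share the library, its depth and the sequence.

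The ratio of KO to WT varied along the run, in 4 stretches that were drawn after the profile was seen. From ASAP2 to YWHAQ peaks covered 36.3% ± 7.32 in KO and 51.0% ± 3.56 in WT, a ratio of 0.711, without overlap. From TAF1B to ATP6V1C2 they covered 11.4% ± 2.72 in KO and 13.4% ± 0.50 in WT (0.853), with KO replicate 3 above all WT libraries. From PDIA6 to LPIN1 the shares were 24.3% ± 5.66 in KO and 34.7% ± 2.57 in WT (0.700), also without overlap, in a stretch drawn to 12000000, somewhat past the end of LPIN1. From there to the end of the run they were 14.5%, 12.8% and 20.6% in KO and 34.8%, 24.8% and 37.3% in WT (ratio of means 0.496), again without overlap. For peaks per Mb the ratio was also higher in the first stretch than in the last, but KO was above WT in the first. There were 315 ± 24.9 in KO and 277 ± 11.1 in WT from ASAP2 to YWHAQ (1.14). From 12000000 to the end of the run there were 217 ± 18.7 in KO and 310 ± 24.9 in WT (0.700). The differences between stretches were not tested.

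**Figure D3:**
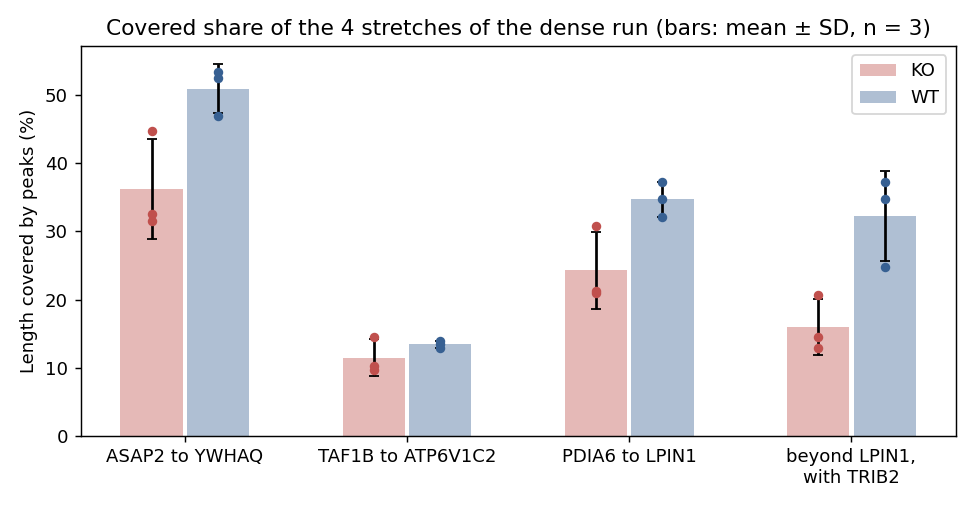
Share of each stretch of the run covered by peaks (%), with bars for the mean ± SD (n = 3) and points for libraries, KO left of WT. The second stretch has the lowest coverage in both genotypes, and the last has the lowest KO value relative to WT.

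Peaks were no sparser in the gene-poor sequence than over genes. Protein-coding genes take up 35.2% of the run. Beyond LPIN1, 890 kb follow without a protein-coding gene up to TRIB2, and 986 kb separate TRIB2 from the end of the run. Peaks per Mb were 250 ± 17.2 in KO and 314 ± 8.13 in WT between LPIN1 and TRIB2. Over protein-coding genes in the run they were 208 ± 9.56 in KO and 210 ± 7.83 in WT. Of the 1513 merged regions 51 (3.37%) were at a gene end, 385 inside genes and 1077 outside genes, whereas 16.7% of the regions outside the segment were at a gene end. Peaks at gene ends made up 4.34%, 4.23% and 3.83% of the segment peaks in the KO lists and 3.66%, 3.69% and 3.41% in the WT lists (exact permutation p = 0.1, 0.133 after adjustment). In the lists of equal length these shares were 4.86% ± 0.69 in KO and 12.2% ± 1.99 in WT, so that the direction turned, and at a fold of at least 4 they were 5.47% ± 0.54 in KO and 5.49% ± 0.58 in WT.

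Most peaks away from gene ends were weak, while the strong ones stood far above the rest. Their median fold was 4.53 ± 0.05 in KO and 4.06 ± 0.08 in WT, against 6.05 ± 0.38 in KO and 5.76 ± 0.28 in WT for such peaks outside the segment. A fold under 6 was found for 85.5% ± 1.16 of them in KO and 87.3% ± 1.69 in WT, against 49.8% ± 6.95 in KO and 53.5% ± 4.48 in WT outside. Relative to the outside median of the same list the segment median stood at 0.750 ± 0.04 in KO and 0.705 ± 0.03 in WT, with overlap between the genotypes (exact permutation p = 0.2, adjusted p = 0.229). Overlap between replicates was as follows: 43.0% ± 4.13 of the segment peaks away from gene ends in KO and 59.0% ± 4.20 in WT overlapped a peak in both other libraries of the genotype, against 63.2% ± 5.35 in KO and 69.3% ± 2.05 in WT outside. Every fold below 100 in the segment was a whole multiple of its library's step (100% in each list, tolerance 0.01 of a step), as a single background per library gives. No local background therefore entered these folds, and each follows the read level at its own peak. DNA copies were not measured here. What part the local read level or DNA copies have in the density was not tested.

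**Figure D4:**
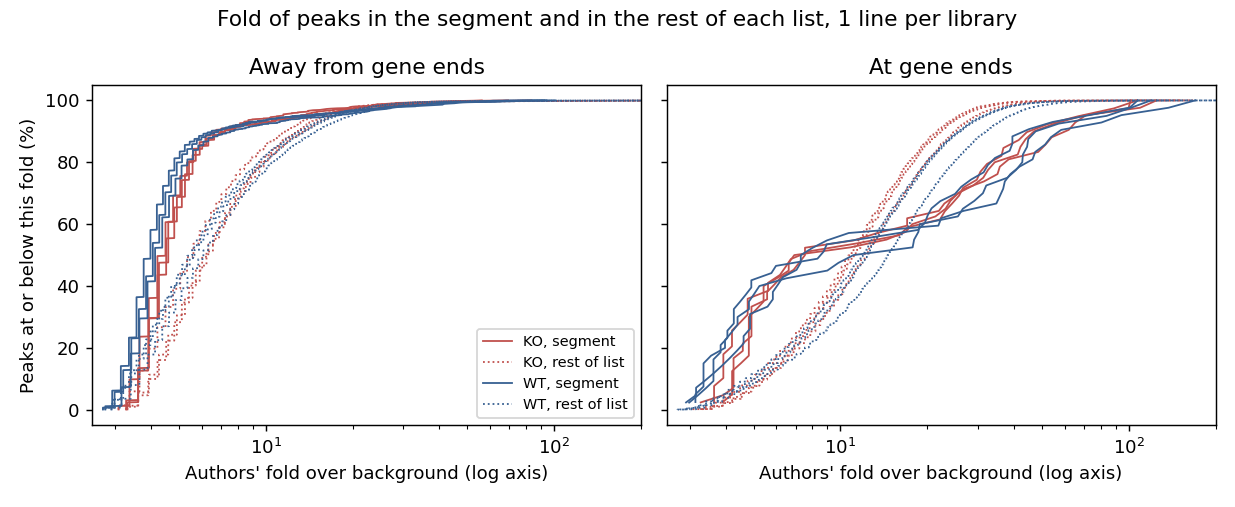
Share of peaks at or below a given fold over background (%, fold on a log axis), 1 line per library, KO in red and WT in blue, with solid lines for the segment and dotted lines for the rest of the list. Away from gene ends the segment lines lie left of the dotted lines, and at gene ends they cross them, with weak calls below and strong calls above.

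Of the 311 regions called in all 6 lists (20.6% of the segment's regions, against 31.2% of all regions of the genome), 187 had a mean fold under 6 and 45 a mean fold of at least 20. Of those 45, 27 (60.0%) lay away from gene ends. Outside the segment 3116 regions passed the same mark and 30.5% of them lay away from gene ends. Of all regions called in all 6 lists, 280 of 311 lay away from gene ends in the segment and 13626 of 23278 outside. The mark was passed by 27 of those 280 and by 949 of the 13626 outside. At gene ends it was passed by 18 of 31 in the segment and by 2167 of 9652 outside. The strongest region away from gene ends was inside TRIB2, which encodes a pseudokinase of the tribbles family, at chr2:12726815-12733282. Its folds were 69.2, 83.3 and 56.1 in KO and 92.5, 101 and 94.1 in WT, so that all KO values lay below all WT values. The next lay in the gene-free stretch, 285 kb below TRIB2, at chr2:12430055-12432230, with folds of 53.0, 57.0 and 46.9 in KO and 57.0, 76.3 and 66.2 in WT. The third, inside PDIA6 at chr2:10809822-10820925, had mean folds of 60.3 in KO and 57.9 in WT and was the only one of the 5 strongest with a higher KO mean. It covers a start annotated inside the gene record, which counts here as away from gene ends. A region 25.5 kb below CIMIP5, at chr2:11102855-11107677, had 44.8, 50.8 and 36.5 in KO and 59.8, 72.9 and 67.9 in WT. A further one, 20.1 kb above YWHAQ at chr2:9651100-9658053, had 42.4, 44.6 and 37.6 in KO and 61.5, 72.9 and 66.0 in WT, and in both of these the groups did not overlap. Folds are over each library's own background. At gene ends outside the segment the median fold was 11.4 ± 0.64 in KO and 13.0 ± 1.41 in WT. Away from gene ends it was 6.05 ± 0.38 in KO and 5.76 ± 0.28 in WT. There a fold of at least 20 was reached by 2.74% ± 0.46 of peaks in KO and 3.79% ± 0.83 in WT. How many such regions elsewhere had groups without overlap was not counted. The widest merged regions were 43.0 kb and 31.0 kb within ASAP2 and 21.6 kb at the start of YWHAQ.

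A gene-end peak in all 6 lists was found at 25 of the 27 protein-coding genes (92.6%), against 54.7% of all protein-coding genes, and none lacked one in every list. The windows of 1 kb around both gene ends also caught weak calls of the dense run, so this count is partly fixed by the density that chose the segment. The exceptions were MBOAT2, below the run, and NTSR2, a neurotensin receptor, each called in 2 of 3 KO and 3 of 3 WT lists. With both ends of a gene pooled, none was called in all WT and no KO lists, against 1.75% of genes called in all WT lists, and none the converse, against 0.0453%. Of single ends, the upper end of SLC66A3 was called in no KO list and in all WT lists, with a mean WT fold of 3.81 ± 0.52 (SD, n = 3). That is near the weakest folds listed, 3.23 ± 0.12 in KO and 2.81 ± 0.10 in WT. The share of single ends so called over all genes was not counted. For the 25 genes the median of the strongest gene-end fold was 32.0 ± 2.74 in KO and 35.1 ± 5.80 in WT. For the 10925 genes elsewhere with such peaks it was 12.7 ± 0.91 in KO and 15.3 ± 1.92 in WT. A mean fold of at least 20 was reached by 17 of the 25 (68.0%) and by 24.5% of the others. The median log2 ratio of KO to WT fold was −0.15 over the 25 genes and −0.27 over the others.

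In the part next to the lower border lay the strongest starts of the segment. ADAM17 (chr2:9488486-9555830) had folds of 101, 109 and 107 in KO and 107, 170 and 119 in WT at its start, with overlap. Its summits lay at −99 to −47 bases from the start, inside the sequence printed above. YWHAQ (chr2:9583967-9630997), a 14-3-3 adaptor protein, had 99.9, 125 and 89.0 in KO and 101, 137 and 101 in WT, also overlapping, with summits at −174 to −24 bases from the start. CPSF3, the endonuclease that cuts pre-mRNA at its 3′ end, and ITGB1BP1, which binds the tail of integrin beta 1, share 1 peak over their divergent starts. Its folds were 68.9, 71.1 and 66.8 in KO and 74.1, 94.3 and 83.8 in WT, and here the KO values all lay below the WT values. The summits of this peak lay at −279 to −143 bases from the start of CPSF3, outside the 84 bases printed. IAH1, an esterase whose peak also covers the upper end of CPSF3, had 25.6, 22.9 and 32.3 in KO and 39.5, 53.7 and 47.6 in WT, a log2 ratio of −0.80, the lowest of the 17 genes with a mean fold of at least 20.

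Genes of transcription and of DNA precursor and polyamine synthesis follow, in the stretch where coverage was lowest. TAF1B, a subunit of the RNA polymerase I selectivity factor, had 42.1, 51.5 and 41.5 in KO and 45.1, 51.3 and 44.4 in WT. KLF11, a Krüppel-like repressor, had 42.6 ± 12.2 in KO and 33.9 ± 7.76 in WT (SD, n = 3), and ODC1 (chr2:10439968-10448327) had 46.9, 62.0 and 30.6 in KO and 31.4, 41.8 and 43.0 in WT. In both, the spread within KO was larger than the difference between genotypes. RRM2 (chr2:10122568-10211010) had 32.5, 35.1 and 36.8 in KO and 34.4, 46.4 and 32.1 in WT. The RRM2 summit lay at 31 to 117 bases from the outermost annotated start in KO and at −2096 to −2090 bases in WT. Fold and summit are those of the strongest peak touching the window of 1 kb, and in WT the summit lay outside that window. The RRM2 folds of KO and WT are therefore not read at the same site, and no shift of the open site was tested. HPCAL1, a calcium sensor, had 44.7 ± 3.66 in KO and 43.9 ± 4.02 in WT, and GRHL1, a grainyhead-like transcription factor, 30.6 ± 8.12 in KO and 27.8 ± 7.64 in WT. For these 6 genes KO and WT overlapped. NOL10, a nucleolar protein, had 16.6 ± 0.56 in KO and 20.4 ± 1.87 in WT, without overlap.

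The genes from PDIA6 upward include secretory, signalling and transcription genes. For PDIA6, a disulfide isomerase of the endoplasmic reticulum, the strongest peaks touching the record's ends had folds of 4.82, 4.92 and 4.21 in KO. In WT they had 18.6, 4.86 and 3.98. The 18.6 of WT replicate 1 is the fold of a peak whose summit lay at −60 bases from an inner start (chr2:10832485). That peak only reaches the end window. At another start annotated inside the PDIA6 record, whose sequence is printed above, folds were 56.6, 71.8 and 52.5 in KO and 45.5, 66.4 and 61.8 in WT, with overlap. LPIN1, a phosphatidate phosphatase, had 28.9, 7.54 and 6.17 in KO and 13.0, 7.29 and 40.7 in WT at the ends of its record. At an inner start LPIN1 had 34.6, 42.9 and 40.7 in KO and 42.9, 48.1 and 46.9 in WT. SLC66A3, a membrane protein of the PQ-loop family, shares its start peak with the upper end of CIMIP5, with 55.4, 65.2 and 52.2 in KO and 54.5, 80.4 and 57.2 in WT. The summits of this peak lay at 38 to 161 bases from the start of SLC66A3, beyond the bases printed. ROCK2, a kinase that acts on the actin cytoskeleton, had 25.1 ± 1.53 in KO and 31.6 ± 5.47 in WT, and E2F6, a repressor of the E2F family found in a polycomb complex, 25.9 ± 4.84 in KO and 30.2 ± 5.79 in WT, and both overlapped. GREB1, an oestrogen-induced gene, had 16.2 ± 1.52 in KO and 21.0 ± 1.85 in WT, and the start of TRIB2 34.3, 35.7 and 36.2 in KO and 38.7, 58.3 and 42.7 in WT, and in both all KO values lay below the WT values. Calls with mean folds under 12 in both genotypes were found at the ends of CYS1, ATP6V1C2, KCNF1 and PPIAP60.

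Counted over the 25 genes, all 3 KO folds lay below all 3 WT folds at 6 (24.0%): CPSF3, ITGB1BP1, IAH1, TRIB2, GREB1 and NOL10. Over all protein-coding genes called in every list this held for 36.8%. The converse was found at none, against 2.93%. With so few genes neither share was read as different from that of all genes, and neither was tested. CPSF3 and ITGB1BP1 are a single peak, as are SLC66A3 and CIMIP5. Over all gene-end peaks of the segment, weak ones included, the median fold relative to that outside was 0.712 ± 0.09 in KO and 0.809 ± 0.33 in WT (exact permutation p = 0.8, adjusted p = 0.8). Its direction was not stable: KO was higher by 0.0837 without WT replicate 3, by 0.253 at a −log10 q-value of at least 5 and by 0.117 with gene-end windows of 2 kb.

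**Figure D5:**
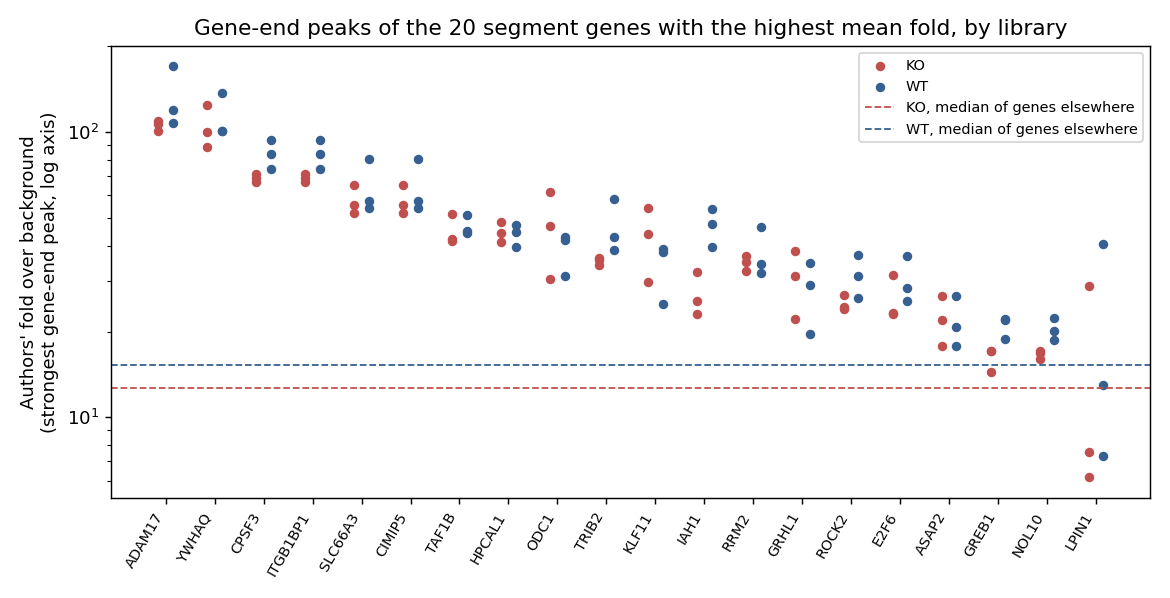
Fold over background of the strongest gene-end peak (log axis) in each library for the 20 genes of the segment with the highest mean fold, KO points left of WT points. Dashed lines give the median of genes elsewhere, 12.7 in KO and 15.3 in WT, and all 20 genes have a mean over the 6 libraries above both.

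Regions called in WT alone made up a smaller share here than over the whole genome. Of 546 regions called in all 3 WT lists 32 (5.86%) were called in no KO list, whereas 17.3% were over the whole genome. At gene ends they were 2 of 37 (5.41%, against 2.64% over the genome), and away from gene ends 30 of 509 (5.89%, against 22.6%). Merged regions of the dense run are long, with a median of 3235 bp for those called in all 6 lists against 1517 bp outside the segment, and the part of this in the lower share was not tested. The 32 regions were weak, with a median WT fold of 3.84, and numbered 2, 4, 4, 9 and 13 in the successive bins of 1 Mb, or 2.82%, 4.71%, 3.28%, 5.92% and 11.2% of the regions called in all WT lists there. With 1 library fewer they numbered 53 (without KO replicate 1), 45 (KO replicate 2), 63 (KO replicate 3), 68 (WT replicate 1), 82 (WT replicate 2) and 66 (WT replicate 3), as the rule then asks for fewer lists. The strongest stood apart: at chr2:13768193-13768989, 36.6 to 42.2 kb beyond the end of the run, folds were 8.54, 13.1 and 13.6 in WT, with no call in any KO list. The second, inside TRIB2 at chr2:12725148-12726407, had 4.27, 7.05 and 5.03 in WT. The remaining ones had mean WT folds under 5.

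No region was called in all 3 KO lists and in no WT list, of 343 called in all KO lists, and over the genome 0.39% were (0.0409% at gene ends and 0.623% away from them), so a count of 0 is close to that background. Leaving out a library gave 2 to 8. With lists of equal length the balance was different. Of 278 regions called in all KO lists 87 (31.3%) were called in no WT list, against 3.82% over the genome under the same setting. Of 135 called in all WT lists 1 was called in WT alone, against 7.24%. This cut kept KO replicate 1 whole and took the weakest peaks from WT lists of 54443 to 56048 peaks. In WT, 85.7% of segment peaks had a fold under 6, against 45.4% outside the segment. The part of the cut in these counts was not tested. At a fold of at least 4 the counts were 8 of 259 in KO alone (3.09%, against 0.684%) and 14 of 286 in WT alone (4.90%, against 15.5%). Regions called in at least 1 KO list and in no WT list made up 14.6% of the segment's regions and 7.22% of all regions of the genome. The converse, at least 1 WT list and no KO list, was more frequent in both, at 27.7% of the segment's regions and 40.8% of the genome's.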

How the data were processed

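ATAC-seq peak lists of 6 libraries were used, 3 KO and 3 WT, placed by their titles. Per the labels, libraries were sequenced as read pairs of 150 bp. The submitters' processing notes name Trimmomatic, FastQC, MultiQC, Bowtie2 and MACS2 2.1.2 with GRCh38. No settings are given there. Peaks were called per library. The deposited values of a peak are a score, a fold enrichment (a ratio over background) and the −log10 of its p-value and of its q-value, as the authors' caller wrote them.

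The mitochondrial peak was left out. Lists held 33055 to 37314 peaks in KO and 54443 to 56048 in WT. Gene positions came from RefSeq (GRCh38.p14), and a gene-end peak overlaps a window of 1 kb on either side of an end of one of 20033 protein-coding genes. Starts and strands came from the RefSeq start sequences. No genome sequence was used, so peaks carry no sequence here. Borders were also fitted by least squares in bins of 100 kb. Tests of KO against WT were exact permutation tests (two-sided, 20 labellings) with Benjamini-Hochberg adjustment over 8 measures. Genes were named by rule: every protein-coding gene overlapping the window, with regions ranked by mean fold. LPIN1 and PDIA6 inner starts were added after their values were seen. One marker gene of the cell type check is not reported here. The segment, lists and comparisons were chosen with earlier results of these data known. Code was tested on simulated data and run in Python 3.11.15 with NumPy 2.4.6, pandas 2.3.3 and SciPy 1.17.1.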

Additional observations from a re-analysis of the deposited data

How the results depend on the processing

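The KO minus WT differences in share of the list, density over flanks and density away from gene ends over flanks kept their direction under all alternatives run. With lists of equal length the share only restates the number of peaks. With lists of equal length the differences were 590 peaks, 236 kb covered, −7.30 percentage points of gene-end share and −0.252 in the relative fold away from gene ends, all turned, with 1 WT-only and 87 KO-only regions and a fitted lower border at 9200000. At a fold of at least 4 they were 55.7 peaks and −0.019 points of gene-end share, both turned, with 14 WT-only and 8 KO-only regions and a lower border at 9200000. At a −log10 q-value of at least 5 the gene-end relative fold differed by 0.253, with 1 KO-only region and borders at 9200000 and 13650000, and with windows of 2 kb by 0.117. Bins of 200 kb put the borders at 9200000 and 13600000, against 9300000 and 13700000 in bins of 100 kb. Leaving out each library gave 45 to 82 WT-only and 2 to 8 KO-only regions and a gene-end relative fold difference of −0.239 to 0.0837. Causes were not tested. Same-numbered libraries showed little shared deviation (r from −0.12 to 0.16), and KO replicate 3 with WT replicate 1 reached 0.31. So few correlations cannot tell whether the numbers pair the libraries. With a replicate block the difference in segment peaks was −184 (exact permutation p = 0.25, the smallest possible), and the block turned no direction. The weakest listed peak had a pileup of 9 to 10 in KO and 11 to 12 in WT, and weaker openings were not detectable at this depth.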
